A study of Mus musculus with 24 samples.

Results

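The genes described here are 10 transcriptional targets of canonical Wnt signalling, namely Axin2, Nkd1, Notum, Znrf3, Dkk1, Lgr5, Lef1, Tcf7, Sp5 and Cdx1. They were selected by gene symbol in each of the 2 deposited RNA-seq tables. All 10 were found, among 23095 genes listed in the J1 table and 25476 listed in the tet-off table, and all 10 passed the filter of at least 2 reads in total. The rule for choosing them names symbols and uses no measured value, but it was set with earlier results of these data known.

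In canonical Wnt signalling, a Wnt ligand binds a Frizzled receptor together with an LRP co-receptor and halts the destruction complex of Axin, APC and GSK3, which otherwise marks β-catenin for degradation. Stabilised β-catenin enters the nucleus and acts with the TCF/LEF factors on target genes. Many targets feed back on the pathway itself, and in mouse embryonic stem cells (ESCs) the GSK3 inhibitor CHIR99021 is widely used to keep β-catenin stable and self-renewal going. XAV939 acts in the opposite sense, because it inhibits the tankyrases that turn over Axin.

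Poly(A) RNA was sequenced from 24 libraries in 12 groups of 2 replicates. The J1 table holds wild-type J1 ESCs and 2 kinds of expanded potential stem cells (EPSCs), D-EPSCs and L-EPSCs, converted from ESCs with published media. The tet-off table holds Oct4-, Sox2- and Nanog-cKO lines, in which the endogenous gene is deleted and a doxycycline (Dox)-repressible transgene takes its place, so that the untreated controls carry the deletion and the transgene too. Each line was profiled as ESCs, as L-EPSCs and as L-EPSCs given Dox, and each is a single established line (ZHBTc4 for Oct4, 2TS22C for Sox2 and NgcKO for Nanog). The labels list CHIR99021 at 3 µM for all 3 J1 media. The MEK inhibitor PD0325901 is listed at 1 µM for the ESC and L-EPSC media, XAV939 at 5 µM for the L-EPSC medium, which also holds A-419259, JNK inhibitor VIII and SB203580, and dimethindene maleate and minocycline hydrochloride at 2 µM each for the D-EPSC medium. A separate medium for the tet-off ESCs is not given. The labels allow mouse embryonic fibroblast feeders or gelatin without saying which was used for a given library, and the study's methods describe the EPSCs as kept without feeders before RNA-seq.

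Libraries held 10807631 to 15069899 reads on genes. The targeted genes fell in the lines that carry them. Pou5f1, which encodes Oct4, went from 6420.1 and 6316 normalized counts in untreated Oct4-cKO L-EPSCs to 162 and 184 with Dox. Sox2 went from 4966 and 4701 to 47.0 and 53.1 in the Sox2-cKO line, and Nanog went from 9119 and 8847 to 3166 and 3112 in the Nanog-cKO line.

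2 features of the J1 libraries bear on every J1 value given here. First, the summed level of 10 fibroblast markers was 90292 to 92493 in ESCs, 57063 to 57420 in D-EPSCs and 18903 to 19537 in L-EPSCs, with none of the 10 at 0, against 188 to 622 in the tet-off libraries, where 2 to 4 of the 9 listed markers were at 0 in each group. L-EPSCs had lower levels of all 10 fibroblast markers than D-EPSCs, each of them called. The sum is carried by abundant collagens: in D-EPSCs against ESCs, Col1a1, Col1a2 and Postn were called lower, while Dcn, S100a4, Thy1 and Twist2 were called higher. The marker level moved with the group, and its part in the J1 differences was not tested. Second, of 10 ERK feedback and immediate-early genes, a list chosen after earlier results had been seen, 6 were called higher and 1, Fos, lower in libraries labelled L-EPSC, whose medium lists a MEK inhibitor, than in those labelled D-EPSC, whose medium lists none. Dusp6, a phosphatase induced by ERK, stood at 1210.0 and 1168 normalized counts in libraries labelled L-EPSC, 763 and 742 in those labelled D-EPSC, and 73.7 and 80.2 in ESCs. In the tet-off lines, 8 of these 10 genes were called lower and 2, Fos and Ier3, higher in L-EPSCs than in ESCs in each of the 3 lines. Whether the J1 EPSC libraries carry the right labels was not tested. If those labels were exchanged, every difference between L-EPSCs and D-EPSCs given here would change direction. Each J1 difference from ESCs given for L-EPSCs would then belong to D-EPSCs, and the reverse. Contrasts of J1 L-EPSCs with tet-off L-EPSCs would rest on the other libraries. Directions and states are therefore those of the libraries as labelled.

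Short stretches of promoter sequence are shown for Sp5 and Dkk1, the members with more than 1 match to the core motif that TCF/LEF factors are known to recognise, and for Lef1, which had a single match. The motif was searched in 4 spellings, first CTTTGAA, then also CTTTGAT, further with CTTTGTA and lastly with CTTTGTT, each on both strands, in the 300 bases from 250 before to 50 after each RefSeq start (GRCm38.p6). Of 32851 such promoters, 16.9% held at least 1 match and 1.94% held at least 2. Promoters were on hand for 6 of the 10 members (Sp5, Lef1, Nkd1, Tcf7, Axin2 and Dkk1), with 10 promoters in all, and 3 of these 10 promoters held a match, 1 each for Sp5, Lef1 and Dkk1. The windows of 30 bases below read 5′ to 3′ on the strand of the gene, and capitals mark the match or its reverse complement.
Sp5, chr2:70474690-70474719 (+), match starting at -222 from the gene start: ttcctagagatAACAAAGacactttgtcac
Sp5, chr2:70474808-70474837 (+), match starting at -104: ggcaaggccccCTTTGATcaggaaaatcca
Dkk1, chr19:30549595-30549624 (-), match starting at -117: tcctcccaaagCTTTGAAatcccatcccgg
Dkk1, chr19:30549576-30549605 (-), match starting at -98: tcccatcccggCTTTGTTgtcttccctgag
Lef1, chr3:131156136-131156165 (+), match starting at -147, in 1 of its 4 promoters: caacctcagaaTACAAAGtaggattgcatt
The 2 Dkk1 windows share 11 bases. A match describes the letters in a window and is not evidence of binding. Nkd1, Tcf7 and Axin2 had no match in their windows, which says only that these letters are absent there.

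The first comparison asked how the J1 EPSC states differ from the ESCs they were made from. In the libraries labelled D-EPSC, 7 of the 10 Wnt targets were called lower than in ESCs and 1, Lef1, was called higher, with a median log2 fold change over the 10 of -1.93 against 0.01 over all genes tested. A call needed an adjusted p under 0.05 in limma (1 fit per table to log2(normalized count + 1)) and a log2 fold change beyond 0.6. By this rule 20.7% of all 21533 genes were called in the same comparison. In the libraries labelled L-EPSC, 4 members were called lower and 1 higher, the median was -0.09 against 0, and 20.3% of all genes were called. Between the EPSC states, 6 members had more and 1 had less in L-EPSC than in D-EPSC libraries, with a median of 0.99 against 0, where 13.4% of all genes were called. The 3 comparisons share libraries and are not independent of each other. In D-EPSCs against ESCs, 5 of 10 trophoblast markers were also called lower and 0 higher, with mean sums of 197 and 1519 normalized counts, as were 4 of 10 primitive streak and mesoderm markers, with mean sums of 61.0 and 846. In L-EPSCs against ESCs, 3 trophoblast markers were higher and 3 lower, and 2 primitive streak and mesoderm markers were higher and 3 lower. The part of these markers in the Wnt target differences was not tested.

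Feedback inhibitors that act inside the cell are described first. Axin2, a scaffold of the destruction complex and the most widely used readout of β-catenin activity, lies on chr11:108781663-108812097 (NCBIM37, plus strand). Its normalized counts were 767 and 706 in ESCs, 708 and 714 in L-EPSCs, and 109 and 88.1 in D-EPSCs. The D-EPSC libraries stood below the other 4 and did not overlap them, whereas ESC and L-EPSC libraries overlapped. Axin2 was 7.46-fold lower in D-EPSCs than in ESCs (log2 fold change -2.89, SE 0.11, adjusted p = 6.4e-07 in limma) and 7.20-fold above D-EPSCs in L-EPSCs (log2 fold change 2.84, adjusted p = 1.7e-06 in limma). The difference between L-EPSCs and ESCs was -0.05 on the log2 scale (SE 0.11, adjusted p = 0.76 in limma). A gene on the opposite strand overlaps the exons of Axin2, and its reads could not be told apart because the strand setting of the counting is not stated.

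Nkd1, a Dishevelled-binding inhibitor of the pathway, was low and scattered, at 18.9 and 8.30 normalized counts in ESCs, 27.6 and 11.7 in D-EPSCs and 28.8 and 23.0 in L-EPSCs. None of its 3 differences was called, and the replicate spread of ESCs and D-EPSCs covered each other. Znrf3, a membrane ubiquitin ligase that removes Frizzled receptors, was the steadiest member, with ESC libraries at 445 and 477, L-EPSC libraries at 437 and 469, and D-EPSC libraries at 356 and 339. Its D-EPSC libraries lay below all the others, by 0.41 on the log2 scale against ESCs (adjusted p = 0.0036 in limma), which stayed inside the threshold on fold change.

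The secreted inhibitors moved apart. Notum, an enzyme that strips the lipid from Wnt ligands, stood at 1204 and 1344 normalized counts in ESCs, 628 and 671 in D-EPSCs and 433 and 429 in L-EPSCs, with no overlap between any pair of groups. It was 1.96-fold lower in D-EPSCs (adjusted p = 1.9e-05 in limma) and 2.96-fold lower in L-EPSCs (adjusted p = 1.5e-06 in limma) than in ESCs. The exons of Notum overlap 2 genes on the opposite strand. Dkk1, which blocks the LRP co-receptors, had 14.4 and 2.77 normalized counts in ESCs, 19.5 and 10.3 in L-EPSCs, and no read in either D-EPSC library. Against the floor of 3 reads per library that a count of 0 allows, Dkk1 was at least 2.80-fold lower in D-EPSCs than in ESCs with L-EPSCs at least 4.88-fold higher than D-EPSCs. Both calls passed (adjusted p = 0.016 and 0.0052 in limma). The first was lost without D-EPSC replicate 1, D-EPSC replicate 2 or ESC replicate 1, and when only these groups were fitted. The second was lost with any 1 of its 4 libraries left out. ESC replicate 2 held only 3 reads of Dkk1, so the ESC level rests mainly on replicate 1, with 16 reads.

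Lgr5, a receptor for the R-spondins that amplify Wnt signals and a marker of adult intestinal stem cells, was found mainly in ESCs, at 91.7 and 102 normalized counts. D-EPSCs had 7.15 and 10.8, and L-EPSCs had 1.03 and 2.30, which is within the floor. It was 10.8-fold lower in D-EPSCs (log2 fold change -3.32, SE 0.44, adjusted p = 0.00065 in limma) and at least 28.1-fold lower in L-EPSCs (adjusted p = 5.2e-05 in limma) than in ESCs. The L-EPSC libraries held 1 and 2 reads of Lgr5, against 7 and 11 in the D-EPSC libraries. This difference of at least 2.60-fold was called (adjusted p = 0.013 in limma). The call was lost without D-EPSC replicate 1, D-EPSC replicate 2 or L-EPSC replicate 1, and when only these groups were fitted. By group means, Lgr5 and Lef1 ordered the 3 states in opposite ways. For Lgr5, the step between the EPSC states rests on few reads.

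Lef1, a TCF/LEF factor that is itself induced by Wnt signals, was the member that rose in both EPSC states. Its normalized counts were 6.29 and 8.30 in ESCs, 144 and 156 in D-EPSCs and 356 and 382 in L-EPSCs. No group overlapped another. The level was 20.5-fold higher in D-EPSCs (log2 fold change 4.19, SE 0.19, adjusted p = 1.8e-06 in limma) and 50.5-fold higher in L-EPSCs (log2 fold change 5.49, SE 0.19, adjusted p = 5.1e-07 in limma) than in ESCs. L-EPSCs were also 2.46-fold above D-EPSCs (adjusted p = 0.0016 in limma), a call lost without D-EPSC replicate 1 or L-EPSC replicate 2. Tcf7, the other TCF/LEF factor of the set, moved little, from 1169 and 1214 in ESCs to 1119.6 and 1070.0 in L-EPSCs and 669.9 and 682 in D-EPSCs, and was called 1.76-fold lower in D-EPSCs (adjusted p = 7.2e-06 in limma).

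Sp5 and Cdx1, zinc-finger and homeobox factors that respond directly to Wnt signals, showed the deepest losses in D-EPSCs. Normalized counts of Sp5 were 1.02 and 0 in D-EPSCs, 45.2 and 48.3 in L-EPSCs, and 120.4 and 115 in ESCs. It was at least 38.5-fold lower in D-EPSCs than in ESCs (adjusted p = 1.3e-05 in limma) with L-EPSCs at least 15.3-fold higher than D-EPSCs. Those of Cdx1 were 875 and 822 in ESCs, 464 and 552 in L-EPSC libraries, and 1.02 and 1.96 in D-EPSCs, where it was at least 277-fold lower than in ESCs (adjusted p = 9.2e-08 in limma). The smaller falls in L-EPSCs against ESCs, 2.52-fold for Sp5 and 1.67-fold for Cdx1, passed the test (adjusted p = 0.039 and 0.024 in limma), but neither was called with any 1 of the 4 libraries left out.

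**Figure D1:**
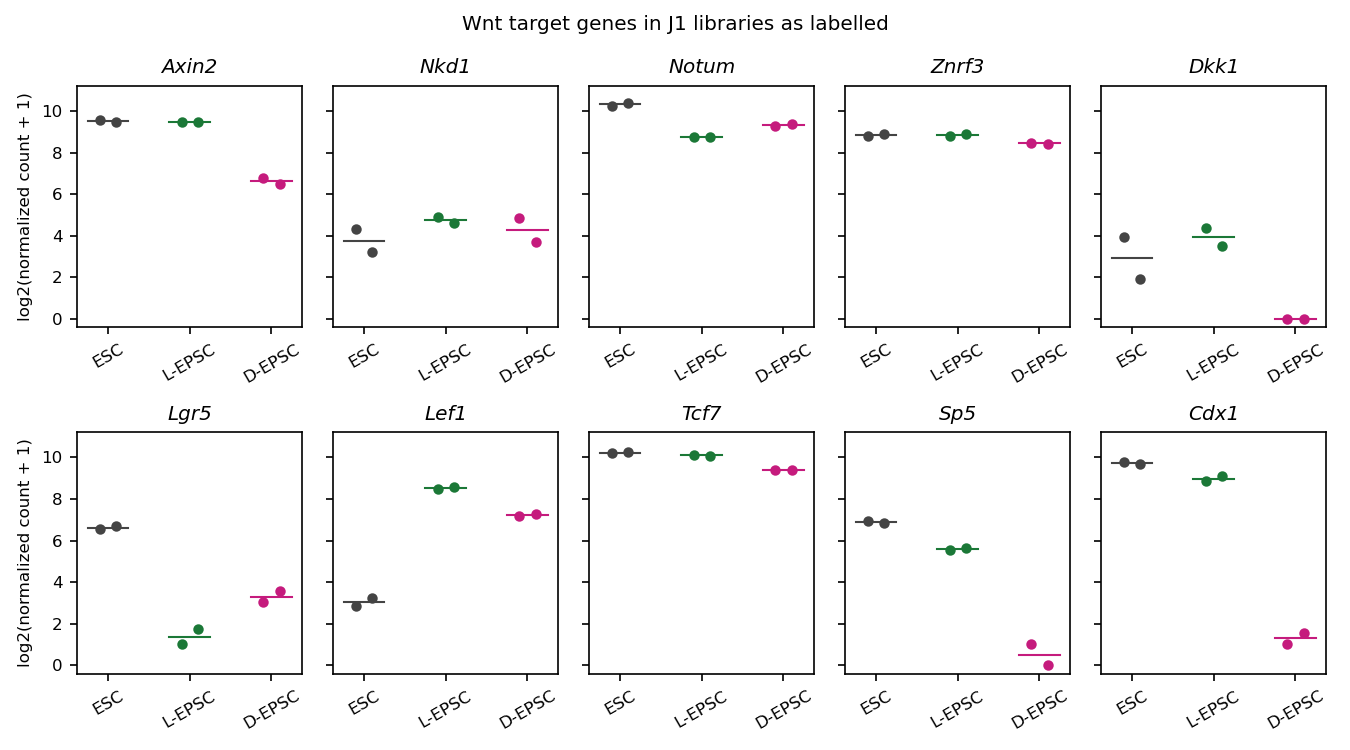
Levels of the 10 Wnt targets in the 6 J1 libraries as labelled, on log2(normalized count + 1). Each point is a library and each line the mean of 2 replicates. Axin2, Sp5 and Cdx1 are lowest in D-EPSCs, and in L-EPSCs Sp5 and Cdx1 lie between D-EPSCs and ESCs. Lgr5 is high only in ESCs among these groups, and Lef1 is lowest in ESCs.

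Levels of different genes were set side by side per kb of exon. Notum was the highest member in ESCs, at 529 normalized counts per kb, followed by Cdx1 at 485, Tcf7 at 427 and Axin2 at 134. In L-EPSCs the same 4 genes led, with Tcf7 at 392, Cdx1 at 290.1, Notum at 179 and Axin2 at 129. In D-EPSCs only Notum and Tcf7 stayed above 100 per kb, at 269.6 and 242, while Axin2 stood at 17.9 and Cdx1 at 0.851. The last of these values rests on 3 reads or fewer in each library.

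Other Wnt pathway genes were taken from lists chosen with earlier results of these data known. Of 11 further Wnt targets, 5 were called lower in D-EPSCs than in ESCs (Apcdd1, Cdx2, Rnf43, T and Tnfrsf19) and 1 higher (Myc). In L-EPSCs none was called lower and 3 were called higher, namely T, Myc and Tnfrsf19. T, the primitive streak factor Brachyury, had a mean of 12.8 normalized counts in ESCs, 3.02 in D-EPSCs and 101 in L-EPSCs, which gave a log2 fold change over ESCs of -1.82 and 2.89. Against D-EPSCs, 6 of the 11 were higher in L-EPSCs and none was lower. The share of all genes called was 20.7% in D-EPSCs against ESCs, 20.3% in L-EPSCs against ESCs and 13.4% between the EPSC states.

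Upstream of the targets, 7 of 16 tested Wnt ligands were lower and 1 was higher in D-EPSCs than in ESCs, and 4 were lower and 2 higher in L-EPSCs. Wnt3a, a canonical ligand, had a mean of 20.5 normalized counts in ESCs and no read in D-EPSCs, and was called lower there. The ligand gene called higher in D-EPSCs was Wnt3, which had no read in ESCs. Wnt5b, mostly a ligand of non-canonical signalling, had a mean of 34.5 in ESCs, 9.96 in D-EPSCs and 109 in L-EPSCs, and was called lower in the former EPSCs and higher in the latter. Among 15 receptors and co-receptors, 6 were called in D-EPSCs and 7 in L-EPSCs, with Fzd7 higher in both (log2 fold change 2.68 and 1.89) and Ror2 lower in both (-3.13 and -0.68). Porcn, which adds the lipid to Wnt ligands, was higher in L-EPSCs than in ESCs (log2 fold change 2.28). Wls, the only other gene listed for ligand secretion, was called lower in L-EPSCs than in ESCs. Neither gene was called in D-EPSCs against ESCs. Of 16 genes of the destruction complex and its regulators, 3 were called in D-EPSCs against ESCs, 3 in L-EPSCs against ESCs, and 0 between the EPSC states. Over all genes, 20.7%, 20.3% and 13.4% were called in these comparisons. The share of the destruction complex called was thus no higher than that of all genes.

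The second comparison asked whether the Wnt targets moved when the tet-off ESCs were converted to L-EPSCs. Axin2, Lef1 and Notum were called lower in L-EPSCs than in ESCs in 3 of 3 lines. In the Oct4-cKO and Sox2-cKO lines these were the 3 members called, where 28.4% and 19.6% of all 24007 genes tested were called. In the Nanog-cKO line 7 members were called, 6 lower and 1 higher, where 26.9% of all genes were called. The share of members called in the Oct4-cKO line was close to that of all genes. The median log2 fold change over the 10 was -0.07, -0.06 and -1.05 in the Oct4-, Sox2- and Nanog-cKO lines, against 0 over all genes in each. Markers of cell state moved in the same comparisons. Of 10 pluripotency markers, 6, 3 and 7 were called lower and 0 higher, with mean sums that went from 84320 to 50010 normalized counts in the Oct4-cKO line, 69270 to 55114 in the Sox2-cKO line and 94553 to 57873 in the Nanog-cKO line. Primitive endoderm markers were 6 higher and 1 lower of 10 in the Oct4-cKO line, 3 higher and 6 lower in the Sox2-cKO line, and 4 higher and 3 lower in the Nanog-cKO line, and trophoblast markers 5 higher and 0 lower, 0 higher and 4 lower, and 4 higher and 1 lower. Their part in the Wnt target differences was not tested.

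Axin2 had 233 and 213 normalized counts in Oct4-cKO ESCs and 68.3 and 64.7 in the L-EPSCs made from them. In the Sox2-cKO line it went from 143 and 144 to 73.5 and 64.8, and in the Nanog-cKO line from 328 and 293 to 135 and 116. ESCs stood above L-EPSCs in each line without overlap. The falls were 3.35-fold (adjusted p = 1.8e-07), 2.08-fold (adjusted p = 7.9e-05) and 2.47-fold (adjusted p = 5.5e-06), all in limma. In the J1 libraries as labelled, by contrast, the values were 708 and 714 in L-EPSCs against 767 and 706 in ESCs. That table was normalized separately, so no test joins them.

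Lef1 went from 75.3 and 63.8 to 17.7 and 16.2 in the Oct4-cKO line, from 63.6 and 66.8 to 7.56 and 7.98 in the Sox2-cKO line, and from 163 and 201 to 51.1 and 63.2 in the Nanog-cKO line. Thus Lef1 was lower in every L-EPSC library of the tet-off lines than in the ESCs of its line, while in J1 both L-EPSC libraries were above both ESC libraries. The log2 fold changes were -1.97, -2.92 and -1.65 (SE 0.36 for each). Notum fell by 3.68 on the log2 scale in the Oct4-cKO line, from 339 and 338 to 30.2 and 21.6. It fell by 1.45 in the Nanog-cKO line, from 95.1 and 102 to 37.3 and 33.6, and by 0.67 in the Sox2-cKO line, from 77.7 and 85.8 to 46.5 and 55.9. The fall in the Sox2-cKO line (adjusted p = 0.038 in limma) was lost when any of 3 of its 4 libraries was left out and when only these groups were fitted. Notum lost more in the Oct4-cKO line than in either other line, with a difference of log2 fold changes of -3.01 from the Sox2-cKO line (interaction term, adjusted p = 7.2e-06 in limma, where 10% of all genes were called) and -2.23 from the Nanog-cKO line (adjusted p = 1e-04 in limma, where 14.7% were called). In the same interactions, Axin2 was called against the Sox2-cKO line (-0.68), and Tcf7 and Nkd1 against the Nanog-cKO line (-0.62 and -1.21), so 2 and 3 of the 10 members were called. The interaction of Axin2 was lost in 7 of the 8 fits that left out 1 library, that of Nkd1 in 6 and that of Tcf7 in 3.

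Nkd1 was the member that rose on conversion, and it did so in the Nanog-cKO line, from 40.8 and 25.8 to 124 and 110.1 normalized counts. It was 3.51-fold higher (log2 fold change 1.81, SE 0.29, adjusted p = 7e-05 in limma), and the groups did not overlap. In the Oct4-cKO line Nkd1 had 24.05 and 40.6 in ESCs against 45.3 and 51.2 after conversion, and in the Sox2-cKO line 50.5 and 36.4 against 58.3 and 42.9, neither of which was called. The rise in the Nanog-cKO line exceeded that in the Sox2-cKO line by 1.60 (interaction, adjusted p = 0.0083 in limma, 1 of 10 members called where 14.8% of all genes were). Nkd1 lies on chr8:91045243-91118786 (NCBIM37, plus strand), and genes of chromosome 8 as a whole were higher in the same comparison. Over 735 genes of chromosome 8 whose mean reached 10, the median log2 fold change was 0.51 in the Nanog-cKO line and 73.1% were above 0, against 0.11 and 55.1% in the Oct4-cKO line and 0.14 and 59.6% in the Sox2-cKO line. Chromosome 6 had a median of 0.61 in the Nanog-cKO line, and the median over all chromosomes there was 0.004. The part of this shift in the rise of Nkd1 was not tested.

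**Figure D2:**
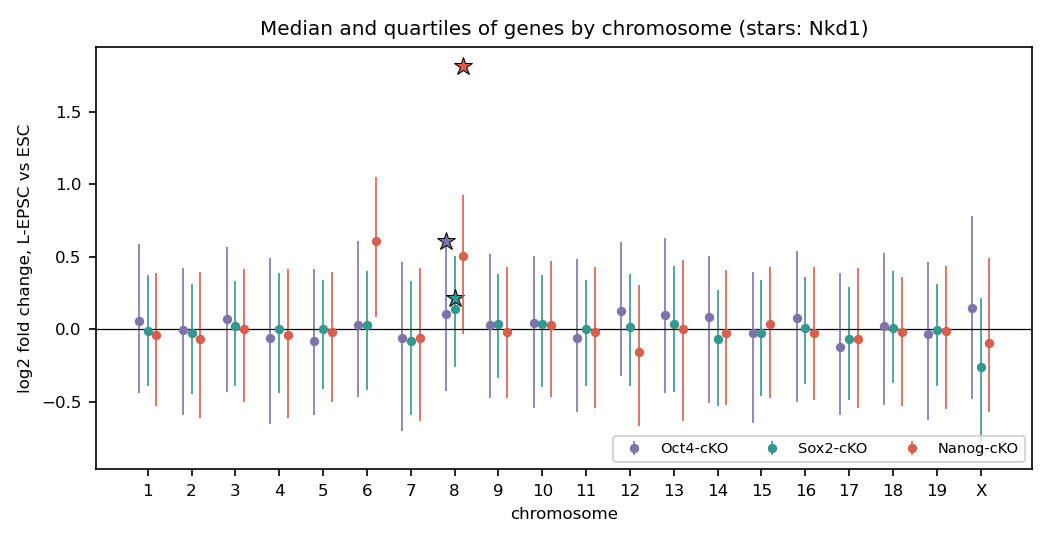
Log2 fold change of L-EPSCs over ESCs by chromosome in the 3 tet-off lines, as median (point) and quartiles (line) of genes whose mean reached 10 normalized counts, with Nkd1 as a star. In the Nanog-cKO line the medians of chromosomes 6 and 8 are 0.61 and 0.51, and Nkd1 lies at 1.81, above the upper quartile of chromosome 8.

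The other members called in the Nanog-cKO line were Znrf3, Sp5 and Lgr5. Znrf3 went from 335 and 398 to 220.5 and 197 (log2 fold change -0.81, adjusted p = 3.1e-05 in limma). In the Oct4-cKO line it went from 352 and 328 to 223 and 257 (log2 fold change -0.50, adjusted p = 0.0023 in limma), which was within the threshold on fold change, and in the Sox2-cKO line from 350.3 and 347 to 327 and 258. Sp5 went from 17.8 and 26.9 to 3.20 and 7.14 in the Nanog-cKO line (adjusted p = 0.042 in limma), a call lost without any 1 of the 4 libraries. Lgr5 was called lower with 2.09 and 1.12 normalized counts in ESCs and none in L-EPSCs, and since both groups were at the floor of 3 reads no fold is given. In the tet-off table every group had Lgr5 at or below 3 reads in each library.

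Cdx1, Tcf7 and Dkk1 were not called on conversion in any of the 3 lines. Cdx1 had 98.3 and 89.7 normalized counts in Nanog-cKO ESCs against 177 and 167 after conversion (log2 fold change 0.87, adjusted p = 0.061 in limma). This difference was called by edgeR and by DESeq2 on whole reads. The other lines held less Cdx1, between 20.8 and 40.8 in any library of ESCs or untreated L-EPSCs. Tcf7 was the most abundant member per kb in all 9 tet-off groups, from 28.4 normalized counts per kb in Oct4-cKO L-EPSCs with Dox to 413 in Nanog-cKO L-EPSCs, and its log2 fold changes on conversion were -0.14, 0.15 and 0.48.

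**Figure D3:**
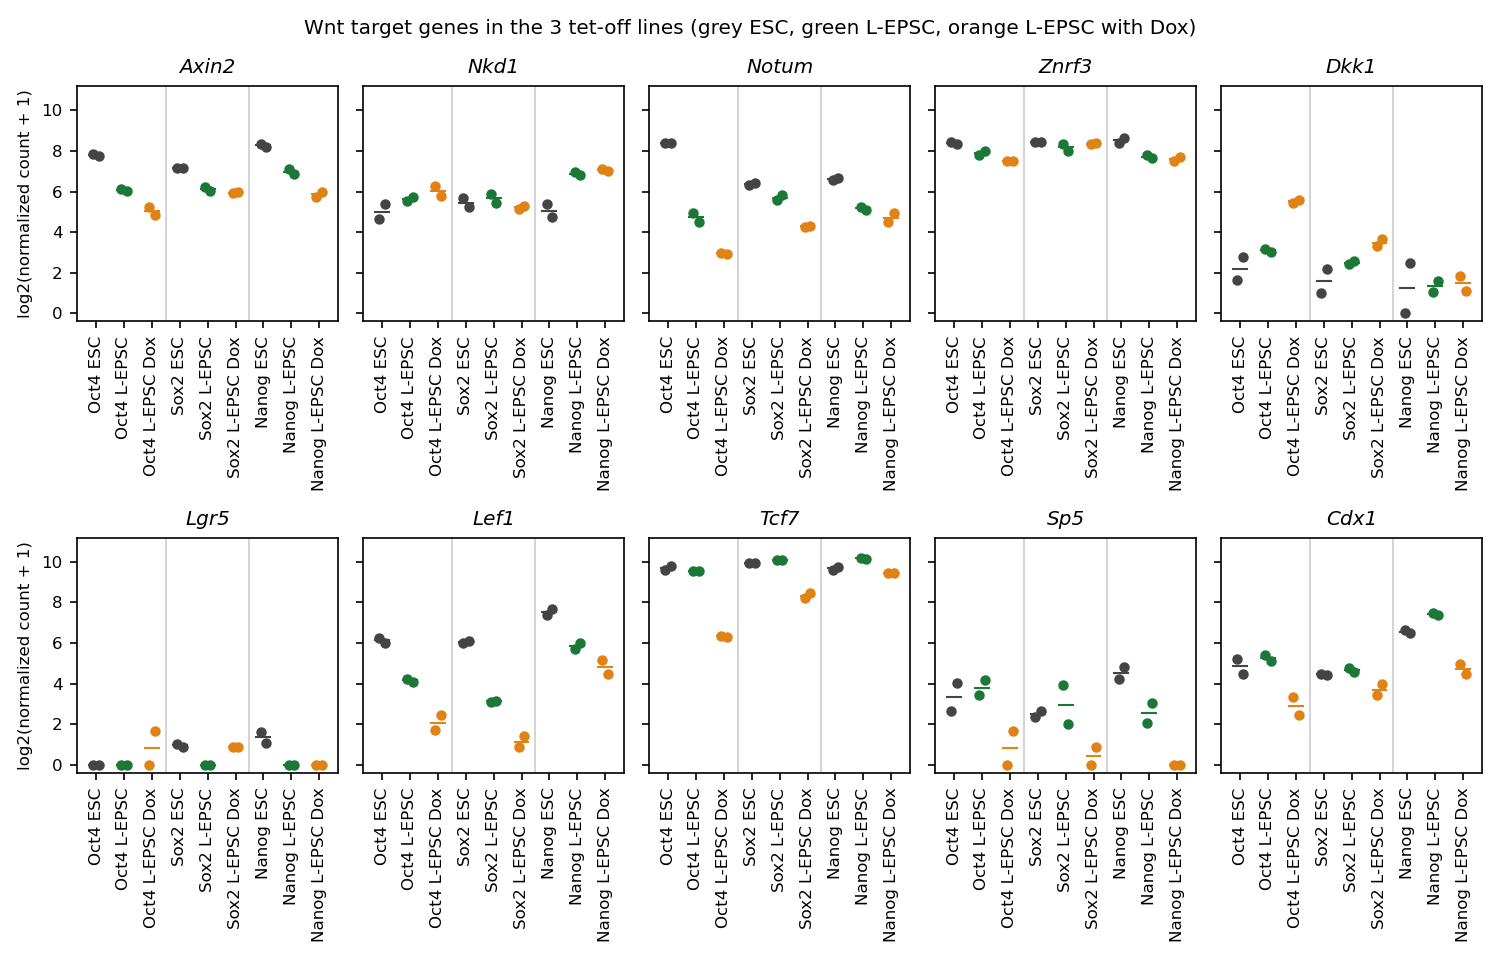
Levels of the 10 Wnt targets in the 18 libraries of the tet-off lines, on log2(normalized count + 1). Each point is a library and each line the mean of 2 replicates. Axin2, Lef1 and Notum step down from ESCs to L-EPSCs in all 3 lines, and Tcf7 drops with Dox, furthest in the Oct4-cKO line.

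Of the 11 further Wnt targets, 2 were called lower and none higher on conversion in the Oct4-cKO line, 2 lower and 2 higher in the Sox2-cKO line, and 2 lower and 1 higher in the Nanog-cKO line. Over all genes, 28.4%, 19.6% and 26.9% were called in the Oct4-, Sox2- and Nanog-cKO lines. Myc was lower in each line, with log2 fold changes of -3.90, -3.11 and -5.68, although it was higher in J1 L-EPSCs than in J1 ESCs. Porcn (-2.16, -2.11 and -0.93) and Lgr4 (-1.17, -1.27 and -0.80), an R-spondin receptor related to Lgr5, were lower in all 3 lines. So were Fzd5 (-1.54, -0.69 and -1.47) and the TLE corepressor Tle4 (-1.86, -1.28 and -2.01). Amer1, a partner of APC, was lower in all 3 lines too (-2.36, -1.20 and -2.07), and the other members of the destruction complex were called in at most 2 lines. Among secreted inhibitors, Dkk3 was higher and Sfrp4 lower in each line, and Frzb was higher in each, with no read in Nanog-cKO ESCs and a mean of 3.66 in the L-EPSCs made from them.

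The third comparison asked what happened to the Wnt targets when L-EPSCs were given Dox to repress each transgene. Nanog RNA was reduced rather than lost. No cells without such a transgene were given Dox. An effect of Dox itself therefore cannot be told apart from loss of the factor, also where all lines changed alike. With a threshold of 1 on the log2 fold change, 6 members were called lower and 1 higher in the Oct4-cKO line, where 19.3% of all genes were called. In the Sox2-cKO line 4 were lower and none higher, where 15.1% were called, and in the Nanog-cKO line 4 were lower and none higher, where 5.39% were called. The median log2 fold change over the 10 was -1.40, -0.70 and -0.60, against 0 over all genes in each line. Sp5 and Lef1 were called lower in 3 of 3 lines, and Tcf7 in the Oct4- and Sox2-cKO lines.

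Tcf7 went from 744 and 740.2 normalized counts to 79.5 and 78.8 with Dox in the Oct4-cKO line, and from 1075 and 1087 to 292 and 350.0 in the Sox2-cKO line. In the Nanog-cKO line it went from 1180.2 and 1125 to 690.4 and 695. Dox and untreated libraries did not overlap in any line. Tcf7 was 9.38-fold lower (log2 fold change -3.21, SE 0.08, adjusted p = 1e-14 in limma), 3.37-fold lower (adjusted p = 3.2e-11 in limma) and 1.66-fold lower (log2 fold change -0.73, within the threshold), respectively. The difference of these effects was called for every pair of lines, at -1.46 between the Oct4- and Sox2-cKO lines (adjusted p = 7.3e-08 in limma), -2.48 between the Oct4- and Nanog-cKO lines (adjusted p = 5.2e-11 in limma) and -1.02 between the Sox2- and Nanog-cKO lines (adjusted p = 2.9e-06 in limma). In these 3 interactions 1, 2 and 2 members were called, where 6.81%, 14.8% and 11.3% of all genes were. The second member in the Oct4- to Nanog-cKO interaction was Notum (-1.30), and in the Sox2- to Nanog-cKO interaction it was Cdx1 (1.76).

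Lef1, already lower in L-EPSCs than in ESCs, went from 17.7 and 16.2 to 2.30 and 4.44 with Dox in the Oct4-cKO line, a 5.03-fold fall (adjusted p = 0.00015 in limma) that was not called when only these groups were fitted. In the Sox2-cKO line it went from 7.56 and 7.98 to 0.825 and 1.64, which is within the floor, a fall of at least 3.14-fold (adjusted p = 0.00026 in limma). In the Nanog-cKO line it went from 51.1 and 63.2 to 35.1 and 21.4 (2.02-fold, adjusted p = 0.049 in limma). The last call was not made by edgeR, DESeq2, a pseudocount of 0.1, the replicate block, the fit of only these 2 groups, or without 3 of the 4 libraries taken 1 at a time. Lef1 thus stood lower with Dox in every line, with the call in the Nanog-cKO line at the edge of the threshold.

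Axin2 went from 68.3 and 64.7 to 36.9 and 27.8 with Dox in the Oct4-cKO line, and from 135 and 116 to 52.7 and 63.0 in the Nanog-cKO line. Both were called, at log2 fold changes of -1.03 (adjusted p = 6.2e-05 in limma) and -1.11 (adjusted p = 8.6e-05 in limma). Both lay just beyond the threshold of 1, and the first was lost without Oct4-cKO L-EPSC replicate 1 or Dox replicate 2, the second without Nanog-cKO Dox replicate 1. Neither was called when only the 2 groups compared were fitted. In the Sox2-cKO line Axin2 went from 73.5 and 64.8 to 59.4 and 61.3, a log2 fold change of -0.19 (SE 0.16, adjusted p = 0.42 in limma). The Dox effect on Axin2 was not called as different between any pair of lines. Such a call needed a difference beyond 1 on the log2 scale, and the differences between lines stayed within that threshold. The lack of a call therefore does not show that the lines responded alike.

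Sp5 was near the floor with Dox in all 3 lines, at 0 and 2.22 normalized counts in the Oct4-cKO line, 0 and 0.818 in the Sox2-cKO line and 0 and 0 in the Nanog-cKO line. Untreated L-EPSCs had 9.76 and 17.1, 14.0 and 2.99, and 3.20 and 7.14, in the same order. The falls were at least 3.88-fold, 3.44-fold and 1.53-fold, and each call rested on few reads and was lost without 1 or more libraries. Cdx1 went from 40.8 and 34.1 to 9.21 and 4.44 in the Oct4-cKO line (5.49-fold, adjusted p = 3.3e-05 in limma), which was not called when only these groups were fitted. In the Nanog-cKO line, where Cdx1 was highest, it went from 177 and 167 to 29.9 and 21.4 (6.72-fold, adjusted p = 2.4e-05 in limma). In the Sox2-cKO line it went from 25.9 and 22.9 to 9.90 and 14.7 (log2 fold change -0.96, within the threshold). Cdx1 in the Nanog-cKO line was therefore a strong Dox response in a line where 5.39% of all genes responded.

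Notum was lower with Dox in the Oct4-cKO line, from 30.2 and 21.6 to 6.91 and 6.66 (3.81-fold, adjusted p = 1.1e-05 in limma), and in the Sox2-cKO line, from 46.5 and 55.9 to 18.1 and 18.8 (2.77-fold, adjusted p = 0.00014 in limma). In the Nanog-cKO line it went from 37.3 and 33.6 to 21.96 and 29.2 and was not called. Dkk1 was the member that rose, from 7.99 and 7.19 to 42.6 and 47.7 in the Oct4-cKO line (5.95-fold, log2 fold change 2.43, SE 0.71, adjusted p = 0.01 in limma). The Sox2-cKO line had 4.32 and 4.99 without Dox and 9.07 and 11.4 with it, which was not called (adjusted p = 0.32 in limma), and the Nanog-cKO line had 1.07 to 2.64 in both conditions. The call for Dkk1 in the Oct4-cKO line was lost at a pseudocount of 0.1 and without replicate 2 of either group. Znrf3 was not called in any line, with log2 fold changes of -0.42, 0.16 and -0.10, and neither was Nkd1, with 0.41, -0.44 and 0.18.

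**Figure D4:**
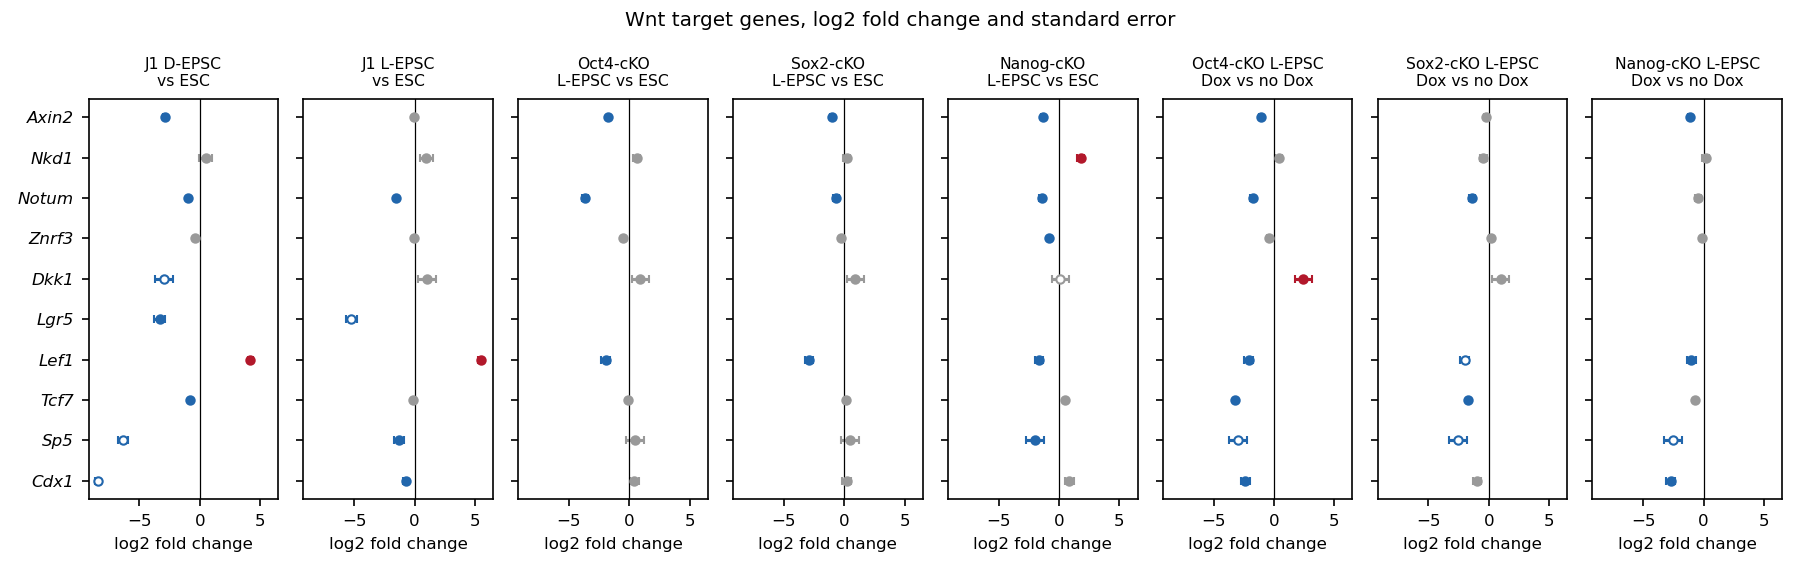
Log2 fold changes of the 10 Wnt targets with standard errors, in J1 EPSCs over ESCs, in tet-off L-EPSCs over ESCs, and with Dox over without. Red and blue mark genes called higher and lower, grey marks genes not called, open symbols have a group at the floor of 3 reads, and genes at the floor in both groups are left out. Lef1 lies at 4.19 and 5.49 in J1 and below 0 in the 6 tet-off panels.

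Markers of other cell types moved with Dox as well. Of 10 trophoblast markers, which include the further Wnt targets Ascl2 and Cdx2, 7 were called higher in the Oct4-cKO line, 8 in the Sox2-cKO line and 1 in the Nanog-cKO line, with summed levels of 29314 to 29640, 12327 to 12365 and 1023 to 1036 normalized counts with Dox, against 4509 to 4646, 2030 to 2071 and 628 to 699 without. Of 10 pluripotency markers, 8, 9 and 1 were called lower. Of 10 primitive streak and mesoderm markers, 2, 3 and 2 were called lower. Primitive endoderm markers were 1 higher and 4 lower of 10, 2 higher and 4 lower, and 0 higher and 2 lower. Over all genes, 19.3%, 15.1% and 5.39% were called. The share of primitive streak and mesoderm markers called in the Oct4-cKO line was close to that of all genes. The order of the lines in the fall of Tcf7 was that of the number of all genes called, and in these bulk libraries fewer cells with a gene and less RNA per cell cannot be told apart. The part of these markers in the Wnt target differences was not tested.

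Of the 11 further Wnt targets, 4 were lower and 2 higher with Dox in the Oct4-cKO line, 5 lower and 4 higher in the Sox2-cKO line, and 1 lower and 1 higher in the Nanog-cKO line. Ccnd1, which encodes the G1 cyclin D1, was lower in all 3 (-5.00, -4.28 and -1.43 on the log2 scale) and Myc was higher in all 3 (4.70, 3.49 and 1.32). Secreted Wnt inhibitors were mostly lower, 7 of 12 in the Oct4-cKO line and 8 of 12 in the Sox2-cKO line with 1 higher, and 3 of 12 lower with 1 higher in the Nanog-cKO line. Sfrp1, a decoy that binds Wnt ligands, was lower in all 3 lines (-3.02, -3.17 and -1.62). Wls, the carrier that brings Wnt ligands to the cell surface, was higher in all 3 (2.38, 1.71 and 2.68). Porcn, the only other gene listed for ligand secretion, was called lower in the Oct4- and Sox2-cKO lines and was not called in the Nanog-cKO line. Of the destruction complex and its regulators, 2, 2 and 0 of 16 were called. Beside all these list counts, 19.3%, 15.1% and 5.39% of all genes were called in the Oct4-, Sox2- and Nanog-cKO lines.

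Axin2 and Dusp6 were set side by side over all libraries because the listed media differ in inhibitors of tankyrase and MEK. In the tet-off lines both genes were lower in L-EPSCs than in ESCs. In tet-off ESCs, for which no separate medium is given, Dusp6 stood at 697 to 1306. In the J1 libraries labelled L-EPSC both were high, at 708 and 714 for Axin2 and 1210.0 and 1168 for Dusp6. In those labelled D-EPSC Axin2 was low, at 109 and 88.1, and Dusp6 stood at 763 and 742. J1 ESCs had Axin2 at 767 and 706 and Dusp6 at 73.7 and 80.2. The 2 tables were normalized separately, so levels are compared within a table.

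**Figure D5:**
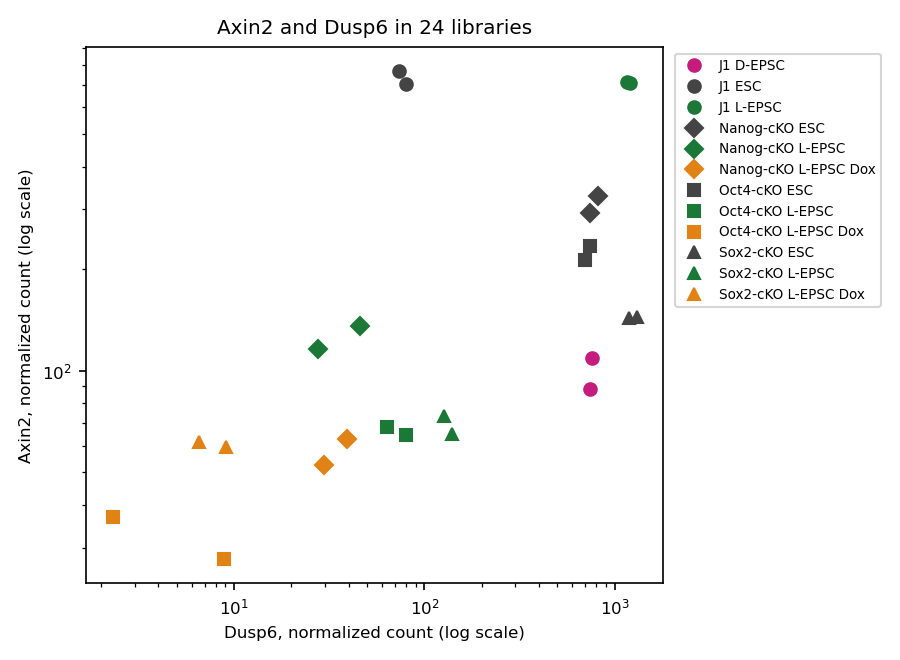
Axin2 against Dusp6 in the 24 libraries, both in normalized counts on log axes, with the shape of a point for the line and its colour for the state. Within J1, the libraries labelled L-EPSC lie at 708 and 714 for Axin2 and those labelled D-EPSC at 109 and 88.1. Within the tet-off table, which was normalized separately, L-EPSCs lie at 64.7 to 135 without Dox and 27.8 to 63.0 with it.

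The members did not vary as 1 block. On log2(normalized count + 1) centred within each table, the median Pearson r of a member with the other 9 over the 24 libraries was highest for Axin2 (0.60), Tcf7 (0.48), Sp5 (0.45) and Notum (0.44), and below 0 for Dkk1 (-0.10) and Nkd1 (-0.28). These are descriptions over libraries that share groups and lines. The tables differed for Dkk1, whose r with Axin2 was 0.91 in J1 and -0.69 in the tet-off lines, and with Tcf7 0.86 and -0.82. Of 13257 genes whose mean reached 10 in both tables, the closest to Axin2 were Kyat3 (r = 0.92), Upk1a (0.90) and Cep55 (0.89), and the closest to Lef1 were Dab1 (0.96), Crmp1 (0.95) and Tub (0.95). The closest to Tcf7 were Fgf4 (0.97), Foxh1 (0.97) and Mms19 (0.97). Nkd1 was closest to Zfand2b (0.85), Cfap20 (0.84) and Brd7 (0.84). Sp5 was closest to Tulp2 (0.89), the ligand gene Wnt11 (0.88) and Jpt2 (0.87), Cdx1 to the Wnt receptor gene Ror2 (0.90), Grsf1 (0.89) and Pou2f3 (0.88), and Notum to Aspscr1, Tsc2 and Dcp2 (0.94, 0.94 and 0.93). Dkk1 was closest to Fzd4 (0.87), Rnf19a (0.83) and Btg3 (0.83), Lgr5 to Trappc12 (0.86), Cdh4 (0.85) and Mfn1 (0.84), and Znrf3 to Cxxc5 (0.91), Tnrc6b (0.91) and Spen (0.90).

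The order of the 9 tet-off groups differed between members. Axin2 ran from Nanog-cKO ESCs (310.4 normalized counts, mean of 2) through Oct4-cKO ESCs (223), Sox2-cKO ESCs (144) and Nanog-cKO L-EPSCs (126) to 69.2 and 66.5 in Sox2- and Oct4-cKO L-EPSCs, whose ranges overlapped. With Dox it stood at 60.4, 57.8 and 32.3 in the Sox2-, Nanog- and Oct4-cKO lines, and the first 2 of these overlapped. Nanog-cKO cells thus had the most Axin2 in both states before Dox. Cdx1 was also highest in that line, at 172 in L-EPSCs and 94.0 in ESCs, and next came Oct4-cKO L-EPSCs, Oct4-cKO ESCs and Nanog-cKO L-EPSCs with Dox, where neighbours overlapped but the first and last did not. Znrf3 ran from 366 in Nanog-cKO ESCs to 179 in Oct4-cKO L-EPSCs with Dox, and the ranges of the first 5 groups in its order overlapped from 1 to the next.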

How the data were processed

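Bulk poly(A) RNA-seq of 24 libraries was taken from 2 tables. Both deposited tables hold a signal, that is, gene counts scaled per library. For these the authors trimmed reads with Trim Galore 0.6.4, aligned them with STAR 2.7.9a to NCBIM37 (mm9), counted reads per gene with HTSeq 0.11.2 and divided each library by its DESeq2 size factor (versions from the submitters' processing notes). The strand setting is not given in the sources used here. Whole reads were recovered, with at least 99.99% of values within 0.01 of a whole multiple of 1 read. The tables pair 21304 and 23129 genes with a symbol, and 0 columns were left unmapped.

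The members and all gene lists were chosen with earlier results of these data known. All 10 members are described, along with called genes of the Wnt lists and, per member, the 3 genes of a mean of at least 10 with the highest r. Groups came from the labels. limma 3.58.1 (R 4.3.3, trend, pseudocount 1) was fitted to each table over genes with at least 2 reads, adjusted by Benjamini-Hochberg over all genes. Interactions between lines used the same fit. A gene was called at an adjusted p under 0.05 with a change beyond 0.6, or 1 for Dox, on the log2 scale. A group with at most 3 reads in each library was taken as at the floor, and floors cover counting error only. Whether replicates are separate cultures is not stated, so p-values measure only the spread between libraries, and an exact permutation test of 2 against 2 cannot go below 0.333. As alternatives, whole reads were tested by the quasi-likelihood test of edgeR 4.0.16 and by DESeq2 1.42.0, beside TMM scaling, a mean of at least 10, a pseudocount of 0.1, the replicate block, the 2 groups alone and leaving out each replicate. The script was tested on simulated data. Exon lengths and positions come from the NCBIM37 annotation by gene ID, and Python 3.11.15, NumPy 2.4.6, pandas 2.3.3 and matplotlib 3.10.9 were used. The Dox time for these libraries is not given in the labels. Columns of gene annotation in the tables were not used as measurements.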

Additional observations from a re-analysis of the deposited data

Results flagged for a closer look

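The effects below differed between tet-off lines by an interaction term of the limma fit, with an adjusted p under 0.05 over all genes. The difference also had to lie beyond 0.6 for conversion, or 1 for Dox, on the log2 scale. On conversion to L-EPSCs, the log2 fold change of Notum in the Oct4-cKO line was -3.01 relative to the Sox2-cKO line and -2.23 relative to the Nanog-cKO line. That of Axin2 was -0.68 relative to the Sox2-cKO line, and that of Tcf7 -0.62 relative to the Nanog-cKO line. For Nkd1 it was -1.21 in the Oct4-cKO and -1.60 in the Sox2-cKO line, both relative to the Nanog-cKO line, where genes of chromosome 8 were higher as a group. For the Oct4-cKO line, the calls of Axin2, Tcf7 and Nkd1 were lost in 7, 3 and 6 of 8 fits without 1 library, and for the Sox2-cKO line that of Nkd1 was lost in 3 of 8.

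With Dox, the log2 fold change of Tcf7 in the Oct4-cKO line was -1.46 relative to the Sox2-cKO line and -2.48 relative to the Nanog-cKO line, and in the Sox2-cKO line it was -1.02 relative to the Nanog-cKO line. Notum differed by -1.30 between the Oct4- and Nanog-cKO lines. Cdx1 differed by 1.76 between the Sox2- and Nanog-cKO lines, with the deeper fall in the Nanog-cKO line. The interactions of Tcf7 and Cdx1 between the Sox2- and Nanog-cKO lines were each lost without either of 2 libraries.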

How the results depend on the processing

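No called member for which alternatives were run changed sign. None was run for Lgr5 in the tet-off lines, where it was at the floor. Over the members, 945 values kept direction and call, 84 lost a call, 9 gained one and 15 changed sign without being called. TMM scaling moved the median of all genes by at most 0.036 (log2). The replicate numbers shared only a number (correlation of deviations -0.0279 to 0.0402). With the replicate block, 2 members in place of 1 were called in the Dox interaction of the Oct4- and Sox2-cKO lines. Lef1 lost its call with Dox in the Nanog-cKO line under the same block. Counts of members called moved by over 1.5 times as follows. A pseudocount of 0.1 left 3 of 5 in J1 L-EPSCs against ESCs, and leaving out any replicate there also left 3. Fitting only the 2 groups left 3 of 7 for Dox in the Oct4-cKO line and 1 of 4 in the Nanog-cKO line, where leaving out a replicate left as few as 2, and for all genes it left 479 of 1293 in the latter. For all genes, 1913 (without D-EPSC replicate 2) to 2104 of 2881 calls were left between the J1 EPSC states. Among conversion interactions, leaving out a replicate gave 1 of 2 (Oct4- and Sox2-cKO), 1 of 3 (Oct4- and Nanog-cKO) and 0 to 2 against 1 (Sox2- and Nanog-cKO), where edgeR and DESeq2 gave 3 and a mean of at least 10 gave 2. Among Dox interactions it gave up to 3 against 1 (Oct4- and Sox2-cKO, 2 with a mean of at least 10) and 1 to 4 against 2 (Sox2- and Nanog-cKO). The cause was not tested.

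Values that changed sign, none of them called, had these ranges without 1 replicate. Nkd1 ran from -0.093 to 1.07 (J1 D-EPSC against ESC), -0.096 to 1.07 (L-EPSC against D-EPSC) and -0.012 to 0.45 (Sox2-cKO conversion). In J1 L-EPSC against ESC, Axin2 ran from -0.11 to 0.011, Dkk1 from -0.011 to 2.02 and Znrf3 from -0.076 to 0.026. Sp5 ran from -0.24 to 1.16 (Oct4-cKO conversion) and -0.49 to 1.43 (Sox2-cKO conversion), and Znrf3 from -0.0060 to 0.33 (Sox2-cKO Dox). Dkk1 on Nanog-cKO conversion was -0.41 in edgeR, -0.48 in DESeq2 and ran from -1.13 to 1.32. Whether depth accounts for these changes was not tested.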
